A study of Mus musculus with 25 samples.

Results

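Small nuclear and nucleolar RNA genes were taken from RNA-seq of mouse hematopoietic stem cells as the genes whose symbol starts with Snora, Snord, Scarna, Rnu or Rn7s, together with the single gene *Rpph1*. There were 68 such genes among the 23116 genes of the deposited table, namely 35 Snord, 14 Snora, 4 Scarna, 10 Rnu, 4 Rn7s genes and *Rpph1*. *Rmrp* and *Rnu11* were not analysed here. The cells were HSLAM cells (LSK+ CD150+ CD48-), a sorted bone marrow population enriched for stem cells, from C57BL/6 male littermates 8 to 12 weeks old. All mice carried *Znf143* alleles with loxP sites around exon 1, and all received tamoxifen for 10 days. The *Znf143 -/-* group (3 libraries) also carried *Rosa26ERT2-Cre*, a tamoxifen-activated recombinase expressed in most cell types, and the *Znf143 f/f* group (3 libraries) lacked it. The sample labels name the deleted genotype CTCF KO, whereas the study describes it as *Znf143 -/-*.

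Small nuclear RNAs (snRNAs) are the RNA cores of the spliceosome, in which U1 pairs with the 5′ splice site, U2 with the branch point, and U5 with exon ends held for ligation. Small nucleolar RNAs (snoRNAs) guide the modification or cleavage of other RNAs, C/D box snoRNAs (Snord) by guiding methylation and H/ACA box snoRNAs (Snora) by guiding pseudouridylation, and small Cajal body RNAs (Scarna) do the same for snRNAs. Most snoRNAs are cut out of introns of host genes, but genes of the spliceosomal snRNAs, of U3 and of a few other snoRNAs have promoters of their own, in which the transcription factor ZNF143, also called Staf, is a known activator of the distal element. The mature RNAs carry no poly(A) tail, and the libraries were primed at poly(A). The fragments counted here are therefore not a direct measure of the mature RNA pools.

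The sequences below are those of U1, U2 and U3 genes that rose, of U12 and of *Snora17*, which had the lowest fold change of the 35 tested members. They are shown because the identity of copies of one RNA decides which fragments can be assigned to which gene. They were read 5′ to 3′ from GRCm38.p6 at the GENCODE coordinates. Capitals mark, in U1, the part that pairs with the 5′ splice site and then the Sm site, on which the ring of Sm proteins assembles. In U2 and U12 they mark the part that pairs with the branch point and then the Sm site. In U3 they mark box C and then box D, and in *Snora17* the ACA box.
*Rnu1a1* (U1), chr11:87422867-87423030, plus strand: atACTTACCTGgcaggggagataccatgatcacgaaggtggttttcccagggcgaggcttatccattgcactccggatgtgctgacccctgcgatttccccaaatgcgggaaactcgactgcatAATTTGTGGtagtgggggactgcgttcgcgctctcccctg
*Rnu2-10* (U2), chr11:101658238-101658428, plus strand: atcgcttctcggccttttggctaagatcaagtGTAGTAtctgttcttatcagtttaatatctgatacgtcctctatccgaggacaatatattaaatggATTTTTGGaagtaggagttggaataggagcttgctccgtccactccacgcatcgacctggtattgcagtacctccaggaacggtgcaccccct
*Rnu12* (U12), chr15:83149644-83149794, plus strand: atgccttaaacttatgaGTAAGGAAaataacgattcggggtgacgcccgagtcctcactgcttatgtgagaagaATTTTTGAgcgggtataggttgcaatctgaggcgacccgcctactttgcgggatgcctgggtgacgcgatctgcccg
*Rnu3b1* (U3), chr11:87443237-87443452, plus strand: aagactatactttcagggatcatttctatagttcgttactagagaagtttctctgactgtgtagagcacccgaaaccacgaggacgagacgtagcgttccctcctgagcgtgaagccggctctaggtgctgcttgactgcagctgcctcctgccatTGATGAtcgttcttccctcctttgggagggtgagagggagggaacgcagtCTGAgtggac
*Snora17*, chr2:26639190-26639321, minus strand: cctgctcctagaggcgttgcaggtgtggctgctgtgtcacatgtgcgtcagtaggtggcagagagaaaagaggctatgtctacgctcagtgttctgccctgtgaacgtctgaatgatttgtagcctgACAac

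The sequence of *Rnu1a1* occurs 7 times without a mismatch on the assembled chromosomes of GRCm38.p6, that of *Rnu2-10* 4 times, and that of *Rnu5g*, *Rnu12* and *Snora17* once. The 4 genes *Rnu3b1*, *Rnu3b2*, *Rnu3b3* and *Rnu3b4* are identical over their 216 bases, and the other U3 gene, *Rnu3a*, is 85.2% identical to them. *Rn7s1* and *Rn7s2* are identical as well. A fragment that lies wholly within an exact copy cannot be assigned to 1 copy by its sequence, and how fragments with several equal alignments were counted is not given in the sources used here. Values of these genes are therefore uncertain as to the copy.

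The knockout was checked first. *Zfp143*, the mouse symbol of *Znf143*, had 3.06, 4.03 and 3.63 FPKM in *Znf143 f/f* and 0.145, 0.303 and 0.273 FPKM in *Znf143 -/-* libraries, each library divided by its own total, and *Ctcf* had 26.8 to 30.1 FPKM in all 6 libraries. The libraries held 38643255 to 57895793 fragments on genes, of which 4281 to 9846 lay on the 68 members. The 10 stem cell markers were found in every library, and their summed FPKM was 440 to 540 in *Znf143 f/f* and 720 to 821 in *Znf143 -/-* libraries, with *Ly6a* higher and *Mecom* lower in the test and the other 8 not called. *Ly6a* alone made up 218 to 287 and 555 to 596 FPKM of this sum, and the other 9 markers summed to 223 to 253 and 158 to 225 FPKM, 8 of them with a lower mean in *Znf143 -/-* libraries. Of 13 markers of other marrow cells, those at 0 in at least 1 library included *Cd3e*, *Cd79a*, *Ly6g* and *Csf1r*. The summed FPKM of the 13 was 30.4 to 33.0 in *Znf143 f/f* and 54.3 to 65.8 in *Znf143 -/-* libraries, with *Elane*, *Csf1r*, *Cd48* and *Flt3* higher and *Hbb-bt* lower in the test. *Csf1r* had 1, 0 and 3 fragments in *Znf143 f/f* and 40, 63 and 56 in *Znf143 -/-* libraries, and was tested only through the latter. In bulk samples, a change in the share of a cell type and a change of RNA per cell cannot be told apart, and the part of these markers in the results below was not tested.

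Values are given in FPM, the FPKM without its length term, from which levels of different genes cannot be compared, and with each library divided by its own total. Many members were near the limit of detection. A member was taken as detected in a library at 3 fragments, which were worth 0.0518 to 0.0776 FPM, or 0.740 to 1.11 FPKM for a gene of 70 bases and 0.173 to 0.259 FPKM for a gene of 300 bases. Of the 68 members, 37 reached 3 fragments in all 6 libraries, 43 in all *Znf143 f/f* and 45 in all *Znf143 -/-* libraries. A limit of this kind covers counting error only. The mean over the 6 libraries was at least 10 fragments for 35 members, and these were tested. They were 9 Rnu, 13 Snord, 5 Snora and 3 Scarna genes, *Rn7sk*, *Rn7s1*, *Rn7s2*, *Rn7s6* and *Rpph1*. The other 33 members, 22 of them Snord and 9 Snora genes, had means of 1.67 to 8.5 fragments and at most 16 in any library. The libraries did not overlap between genotypes for 7 of these members, 2 higher and 5 lower in *Znf143 -/-* cells. Of all tested genes, 16.6% were apart higher and 14% apart lower. Tested genes had means of at least 10 fragments, so these shares come from an unlike set. *Rnu73b*, the Rnu gene that was not tested, is a snoRNA from an intron of *Rps3a1* and had 8, 10 and 11 fragments in *Znf143 f/f* and 2, 3 and 8 in *Znf143 -/-* libraries.

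In *Znf143 -/-* HSLAM cells, genes of U1, U2, U5 and U3 rose, and 0 of the tested members fell with limma, where 1 was lower at an unadjusted p under 0.05 and limma voom on the fragments also called 0 lower. The 6 members that rose were *Rnu1a1* (U1), *Rnu2-10* (U2), *Rnu5g* (U5), *Rnu3b1*, *Rnu3b2* and *Rnu3b4* (U3). Mean FPM rose 3.0-fold to 5.24-fold, and 9.27-fold for *Rnu3b2*. With 1 to 7 fragments in *Znf143 f/f* libraries, *Rnu3b2* passed the filter for the test only through the *Znf143 -/-* libraries. Changes are given as the log2 fold change (LFC) on the scale of log2(FPM + 0.02), with its standard error (SE) and 95% confidence interval (CI). The members that rose were 6 of the 35 tested members and 6 of the 9 tested Rnu genes. Of the 17963 tested genes, 3.38% rose, 2.97% fell and 6.35% did either (adjusted p under 0.05, limma with Benjamini-Hochberg adjustment over all tested genes). The Rnu3b genes are identical in sequence, so these counts, and the median over the Rnu genes below, hold copies of the same RNA. With the divisors as deposited in place of own totals, 639 genes rose and 330 fell in place of 608 and 533. Libraries did not overlap, all *Znf143 -/-* libraries being above, for 10 of the 35 members and for 16.6% of all tested genes, and 8 of these 10 were Rnu genes. The median LFC was 1.89 over the 9 Rnu genes, 0.04 over 13 Snord, -0.14 over 5 Snora, 0.28 over 3 Scarna genes and -0.15 over the 5 genes of 7SK, 7SL and RNase P RNA, against 0.04 over all tested genes, where the deposited divisors put it at 0.12. Each of the 9 Rnu genes had an LFC above 0, also under both other scalings, and each of the 5 Snora genes had one below 0, except that 1 of them was at 0.06 with the deposited divisors.

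**Figure D1:**
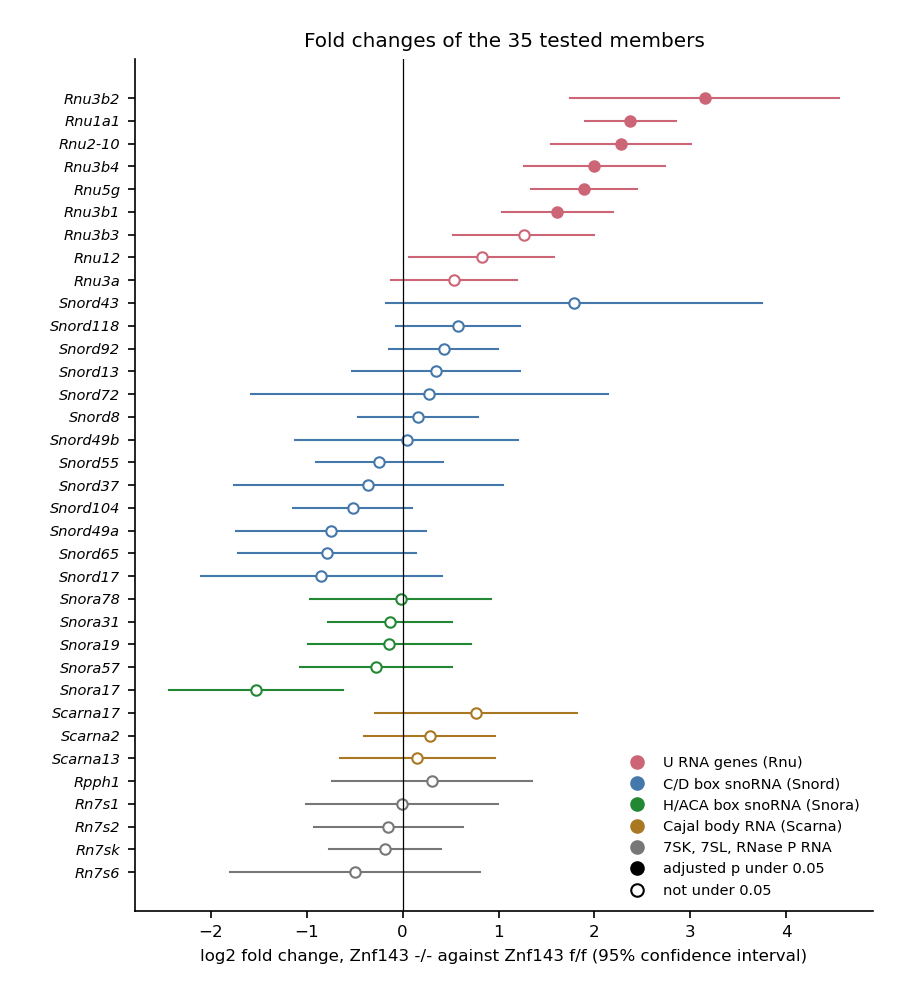
LFC of each of the 35 tested members (*Znf143 -/-* against *Znf143 f/f*, 3 libraries each, limma) with its 95% CI, grouped by class; filled points have an adjusted p under 0.05. The 6 filled points are Rnu genes with LFCs of 1.61 to 3.15, and no member of another class is filled.

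*Rnu1a1*, a U1 gene, had 0.906, 1.11 and 1.17 FPM in *Znf143 f/f* and 5.66, 5.06 and 5.96 in *Znf143 -/-* libraries. The groups lay far apart, with little spread within either. The mean of 1.06 ± 0.138 in *Znf143 f/f* rose to 5.56 ± 0.456 in *Znf143 -/-* libraries (SD, n = 3), an LFC of 2.37 (SE 0.203, 95% CI 1.90 to 2.85, limma adjusted p = 0.00116), from 35 to 345 fragments per library. *Rnu2-10*, a U2 gene, had 3.55, 1.72 and 2.92 in *Znf143 f/f* and 9.20, 15.6 and 14.4 in *Znf143 -/-* libraries, where the first *Znf143 -/-* library was the lowest of its group. The rise amounted to an LFC of 2.28 (SE 0.314, 95% CI 1.55 to 3.01, limma adjusted p = 0.00834). *Rnu5g*, a U5 gene, had 1.97, 2.87 and 2.45 in *Znf143 f/f* and 11.6, 7.13 and 8.67 in *Znf143 -/-* libraries, where the first *Znf143 -/-* library was the highest of its group. The LFC of *Rnu5g* was 1.89 (SE 0.237, 95% CI 1.34 to 2.44, limma adjusted p = 0.00590). These 3 genes passed the threshold with each library left out in turn and under each of the other alternatives, with adjusted p of 0.000267 to 0.0471. For each, the *Znf143 -/-* libraries were all above the *Znf143 f/f* libraries (p = 0.1 in a two-sided exact permutation test, which can go no lower with 3 against 3).

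U3 is a C/D box snoRNA that takes part in the first cleavages of the ribosomal RNA precursor rather than in methylation. *Rnu3b1* had 5.18, 2.79 and 4.38 FPM in *Znf143 f/f* and 14.7, 11.02 and 11.4 in *Znf143 -/-* libraries, with no overlap. Its LFC was 1.61 (SE 0.251, limma adjusted p = 0.0124). *Rnu3b4* had 1.45, 0.647 and 0.921 in *Znf143 f/f* and 3.39, 4.13 and 4.13 in *Znf143 -/-* libraries, again with no overlap, and an LFC of 2.00 (SE 0.315, adjusted p = 0.0132). *Rnu3b2* had 1, 5 and 7 fragments in *Znf143 f/f* libraries, the first below the limit of detection, and 48, 33 and 50 fragments in *Znf143 -/-* libraries. Its LFC was 3.15 (95% CI 1.74 to 4.55, adjusted p = 0.0264), and 2.36 with a pseudocount of 0.1. It was too low to be tested where a mean of at least 30 fragments was asked for. *Rnu3b3* had 1.55, 0.777 and 1.17 FPM in *Znf143 f/f* and 3.45, 2.25 and 2.57 in *Znf143 -/-* libraries, which did not overlap. Its LFC of 1.26 (95% CI 0.52 to 2.00) missed the threshold at an adjusted p of 0.0590. The calls of the U3 genes did not hold with every library left out, although the LFC stayed at 1.36 to 1.80 for *Rnu3b1*, 2.61 to 3.58 for *Rnu3b2* and 1.73 to 2.29 for *Rnu3b4*. Without the third *Znf143 -/-* library, the adjusted p from limma was 0.0555 for *Rnu3b1*, 0.147 for *Rnu3b2* and 0.0776 for *Rnu3b4*, and without the third *Znf143 f/f* library it was 0.0507 for *Rnu3b1* and 0.0604 for *Rnu3b4*. Without the second *Znf143 -/-* library it was 0.0935 for *Rnu3b2* and 0.0616 for *Rnu3b4*, and without the first *Znf143 f/f* library 0.0561 for *Rnu3b2*.

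Although the 4 Rnu3b genes are identical, their values were not. *Rnu3b1* held 151 to 200 fragments in *Znf143 f/f* libraries, where *Rnu3b2* held 1 to 7, and 533 to 697 in *Znf143 -/-* libraries, where *Rnu3b2* held 33 to 50. Summed over the 4 genes, there were 8.20, 4.31 and 6.63 FPM in *Znf143 f/f* and 22.5, 18.1 and 18.9 in *Znf143 -/-* libraries, 3.11-fold more in the mean. Whether the sum holds every fragment of these copies depends on how fragments with several equal alignments were counted, which is not known here. *Rnu3a*, the U3 gene on chromosome 10, had the second most fragments of all members, with 16.9, 14.6 and 17.6 FPM in *Znf143 f/f* and 38.1, 17.1 and 20.3 in *Znf143 -/-* libraries. The genotypes overlapped, and the first *Znf143 -/-* library alone was well above the rest. Its LFC was 0.54 (95% CI -0.12 to 1.19, limma adjusted p = 0.297).

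**Figure D2:**
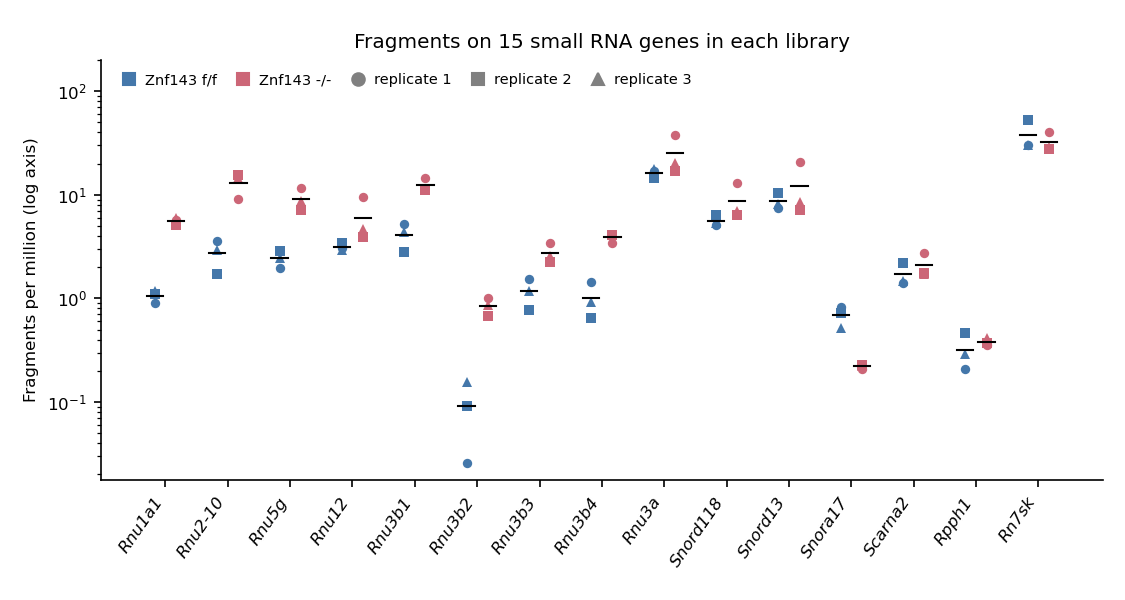
FPM (log axis) of 15 members in each library, blue for *Znf143 f/f* and red for *Znf143 -/-*; symbols give the replicate and bars the group means (n = 3). *Rnu1a1*, *Rnu2-10*, *Rnu5g* and the Rnu3b genes are apart between genotypes, *Rnu12*, *Rnu3a*, *Snord118* and *Snord13* are highest in the first *Znf143 -/-* library, and *Rn7sk* overlaps.

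A second group of genes with promoters of their own was high mainly in 1 library. *Rnu12*, which gives the U12 snRNA of the minor spliceosome, had 3.05, 3.44 and 2.94 FPM in *Znf143 f/f* and 9.48, 3.91 and 4.66 in *Znf143 -/-* libraries. The genotypes did not overlap, but the first *Znf143 -/-* library was above the sum of the other two, and the LFC was 0.82 (95% CI 0.07 to 1.58, adjusted p = 0.175). *Snord118*, which gives U8, and *Snord13*, which gives U13, are snoRNAs of ribosomal RNA maturation, *Snord118* being named here after its values were seen. *Snord118* had 5.12, 6.36 and 5.37 in *Znf143 f/f* and 13.1, 6.39 and 6.98 in *Znf143 -/-* libraries, apart by little, and *Snord13* had 7.40, 10.3 and 8.16 and 20.7, 7.19 and 8.58. Their LFCs were 0.58 (adjusted p = 0.257) and 0.35 (adjusted p = 0.629). Without the first *Znf143 -/-* library, the LFC was 0.44 for *Rnu12* and -0.12 for *Snord13*. The histone genes of the replication-dependent clusters, whose mRNAs also lack a poly(A) tail, were at 1025, 1188 and 1055 FPM in *Znf143 f/f* and 2063, 1194 and 1329 in *Znf143 -/-* libraries, so the first *Znf143 -/-* library was the highest there too. The part of this library's other properties in these values was not tested.

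Small nuclear RNAs of RNA polymerase III and 7SL showed no call. *Rn7sk*, the 7SK RNA that holds the elongation factor P-TEFb in an inactive state, had the most fragments of all members, 24.8% of their total. Its values were 30.04, 53.1 and 30.5 FPM in *Znf143 f/f* and 40.6, 27.9 and 29.2 in *Znf143 -/-* libraries, which overlapped, and its LFC was -0.19 (95% CI -0.77 to 0.40, adjusted p = 0.704). *Rn7s1* and *Rn7s2*, 7SL RNAs of the signal recognition particle, had 15 to 48 and 44 to 92 fragments per library, with LFCs of -0.01 (95% CI -1.01 to 0.99) and -0.15 (-0.92 to 0.63). *Rpph1*, the RNA of RNase P, is on the study's list of genes with ZNF143 at the promoter. It had 0.207, 0.462 and 0.292 FPM in *Znf143 f/f* and 0.358, 0.372 and 0.415 in *Znf143 -/-* libraries, from 8 to 25 fragments, and an LFC of 0.30 (95% CI -0.74 to 1.35, adjusted p = 0.730).

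The Scarna genes, which guide the modification of snRNAs, were not called either. *Scarna2*, also on the list of genes with ZNF143 at the promoter, had 1.42, 2.22 and 1.46 FPM in *Znf143 f/f* and 2.76, 1.78 and 1.71 in *Znf143 -/-* libraries, which overlapped (LFC 0.28, 95% CI -0.40 to 0.97, adjusted p = 0.611). *Scarna13*, in an intron of *Snhg10*, had 1.99, 1.79 and 1.71 and 1.18, 2.85 and 2.50, an LFC of 0.15 (adjusted p = 0.829), and *Snhg10* one of 0.38 (adjusted p = 0.188). *Scarna17* had 6 to 21 fragments, with all *Znf143 -/-* libraries above, and an LFC of 0.77 (95% CI -0.28 to 1.82, adjusted p = 0.353).

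Among the genes with Snord and Snora symbols, which leaves out the U3 genes, 0 of 18 tested genes passed the threshold with limma. Of these, 1, *Snora17*, had an unadjusted p under 0.05. Of all tested genes, 6.35% passed, and 13.1% were higher and 10.6% lower at an unadjusted p under 0.05. With 18 genes, many of them low in fragments, an absence of calls says little. The genes that are singled out here were chosen after their values were seen, except *Snord104*. Of the 13 tested Snord genes, 7 had an LFC above 0 and 6 below, and of the 5 Snora genes 0 and 5. The highest was 1.79 for *Snord43* (95% CI -0.17 to 3.75, limma adjusted p = 0.247). *Snord43* had 7, 1 and 12 fragments in *Znf143 f/f* and 34, 13 and 24 in *Znf143 -/-* libraries, and passed the filter for the test only through the latter. *Snord83b*, not tested, had 0, 0 and 1 fragments in *Znf143 f/f* and 7, 5 and 6 in *Znf143 -/-* libraries. *Snora17* had 0.828, 0.721 and 0.517 FPM in *Znf143 f/f* and 0.211, 0.227 and 0.225 in *Znf143 -/-* libraries, from 10 to 39 fragments. All *Znf143 -/-* libraries lay below, as in 14% of all tested genes, and the LFC was -1.53 (SE 0.391, 95% CI -2.44 to -0.62, adjusted p = 0.0619). Among the alternatives it passed under 2, at an adjusted p of 0.00827 on log2(FPKM as deposited + 0.1) and 0.0165 without a variance trend. *Snora17* lies within *Snhg7* in the RefSeq annotation, and the *Snhg7* entry of the table has a length of 139 bases, too short for this host, so that no host value is given. *Snord98*, in an intron of *Ccar1*, was not tested, and had 16, 6 and 9 fragments in *Znf143 f/f* and 0, 1 and 1 in *Znf143 -/-* libraries. *Snord65*, in an intron of *2410006H16Rik*, had 0.440, 0.462 and 0.494 FPM in *Znf143 f/f* and 0.274, 0.207 and 0.311 in *Znf143 -/-* libraries, and an LFC of -0.79 (adjusted p = 0.278). *Snord104* had the highest level per length of all tested members in *Znf143 f/f* libraries, at 142 ± 22.9 FPKM (SD, n = 3), against 103 ± 39.4 FPKM in *Znf143 -/-* libraries. Its LFC was -0.52 (95% CI -1.14 to 0.10, adjusted p = 0.288), and -0.81 without the first *Znf143 -/-* library, where it passed at an adjusted p of 0.0341.

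Of all 68 members, 52 lie within a gene on the same strand in GENCODE, 49 of them in an intron and 3 over an exon. Of these, 5 lie within *Tex14*, a gene of male germ cells, namely *Rnu1a1* and the Rnu3b genes, which are transcription units of their own. Among the other hosted members, 14 were tested, and 0 passed the threshold with limma or with limma voom, and 0 had an unadjusted p under 0.05, against 6.35% of all tested genes called, and 13.1% higher and 10.6% lower at an unadjusted p under 0.05. Their median LFC was -0.08 (range -0.85 to 1.79), that of their 12 host genes was -0.20, and 0 of the host genes passed. Member and host had the same sign in 8 of 14, with a Pearson correlation of 0.24 across the 14 members, and of -0.0898 over the 9 with coding hosts. The 14 members share libraries and in 3 cases the host *2410006H16Rik*. Of 16 tested members without a host in this annotation, 2 rose, *Rnu2-10* and *Rnu5g*, with a median LFC of 0.29 (range -1.53 to 2.28). Of 5 tested members in *Tex14*, 4 rose, with a median of 2.00. *Tex14* itself had 0.0553 to 0.150 FPKM in *Znf143 f/f* and 0.197 to 0.268 FPKM in *Znf143 -/-* libraries, and an LFC of 1.18 (95% CI 0.20 to 2.16, adjusted p = 0.140).

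Few other genes around the members that rose could be tested, and none of them was called. *Rnu1a1* and the 4 Rnu3b genes lie on chromosome 11 with starts within 48.5 kb, *Rnu2-10* lies farther along the same chromosome, and *Rnu5g* lies on chromosome 9 in an intron of *Parp16*, on the opposite strand. With limma, of 5 other genes tested within 50 kb of these members, not counting copies of snRNAs, 0 passed, with LFCs of -0.05 for *Parp16*, 0.11 for *Rdm1*, 0.20 for *Arl4d*, 0.48 for *Rad51c* and 1.18 for *Tex14*. The library kit does not mark strand, so fragments on *Rnu5g* and on *Parp16* pre-mRNA cannot be told apart. *Parp16* had 3.64 to 4.44 FPKM in all libraries.

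**Figure D3:**
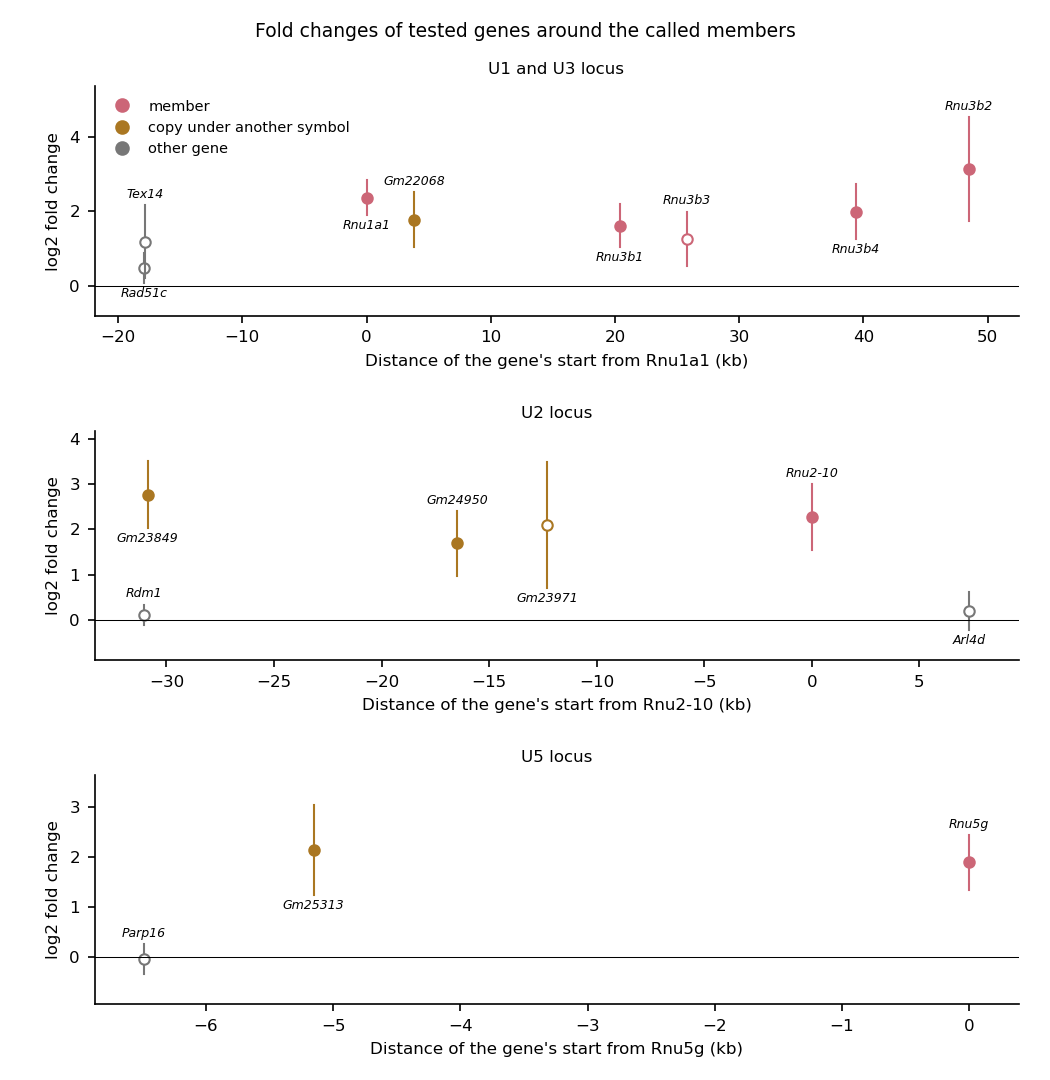
LFC (limma, 95% CI) of the tested genes within 50 kb of the members that rose, plotted by the distance of each gene's start from *Rnu1a1*, *Rnu2-10* or *Rnu5g* in kb; filled points have an adjusted p under 0.05. Members (red) and their copies under other symbols (brown) lie at 1.26 and above, and the other genes (grey) at 1.18 and below, none of them filled.

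Copies of the same RNAs under other symbols, which the definition above leaves out, were examined after the values of the members were seen. In the table, 26 such genes were at least 90% identical to U1, U2, U5, U3 or *Snora17* members, 21 were tested, 7 rose and 0 fell. Of all tested genes, 3.38% rose and 2.97% fell. Those that rose include exact copies of *Rnu1a1* and *Rnu2-10*. Fragments within exact copies cannot be told from those of the member by sequence, so these copies are no separate evidence. Among U1 genes, the exact copy *Gm22068*, which lies 3.85 kb from *Rnu1a1*, rose from 0.576 ± 0.128 to 2.03 ± 0.561 FPM (SD, n = 3, LFC 1.77, adjusted p = 0.0203), and the 4 tested copies at 99.4% identity had LFCs of -0.32 to 0.80. Among U2 genes, the exact copies *Gm23849* and *Gm24950* beside *Rnu2-10* rose. *Gm23849* held more fragments than *Rnu2-10*, with 258, 313 and 325 in *Znf143 f/f* and 1217, 3026 and 3246 in *Znf143 -/-* libraries, an LFC of 2.77 (SE 0.320, adjusted p = 0.00420). *Gm26316*, 99.5% identical and on the same chromosome just outside the 50 kb, had 54 to 108 fragments, and its LFC was -0.05 (95% CI -0.89 to 0.79). Of the 7 U2 copies with mismatches, 1 rose, *Gm24497* on chromosome 1, which is 99.0% identical (LFC 1.73, limma adjusted p = 0.0302). Among 5 U5 genes, all had LFCs of 1.44 to 2.17, and 3 passed (*Gm25313*, *Gm25099* and *Gm23143*). Summed over copies, U1 genes had 4.94 to 5.48 FPM in *Znf143 f/f* and 10.4 to 13.2 in *Znf143 -/-* libraries, U2 genes 22.2 to 42.4 and 86.5 to 107, and U5 genes 7.74 to 9.98 and 20.4 to 43.3, with no overlap in any of the 3 families. These are 2.25-fold, 2.81-fold and 3.35-fold higher means (p = 0.1 each in the same exact permutation test, two-sided). Each sum includes the member for which its family was chosen, so it is no separate evidence. *Gm23849*, which lies within *Rdm1* on the same strand, made up 6.59 of 35.2 FPM of the U2 mean in *Znf143 f/f* and 48.1 of 99.0 in *Znf143 -/-* libraries.

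For *Snora17*, 2 genes of the table were at least 90% identical, and 0 of them were tested. For this family alone the limit was lowered to 80%, which 11 genes met, 1 of them with enough fragments for the test. This gene, *Gm23910* on chromosome 12, is 86.4% identical to *Snora17* and fell, from 28, 21 and 32 fragments in *Znf143 f/f* to 7, 6 and 5 in *Znf143 -/-* libraries (LFC -2.15, SE 0.493, limma adjusted p = 0.0458). Over *Snora17* and these 11 genes there were 119, 132 and 126 fragments in *Znf143 f/f* and 40, 69 and 71 in *Znf143 -/-* libraries, which did not overlap. This sum includes *Snora17* itself, which was singled out for its low fold change. Of the 11 genes, *Gm22657*, *Gm25053*, *Gm24161* and *Gm23608* had a higher mean FPM in *Znf143 -/-* libraries, and the others a lower one.

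**Figure D4:**
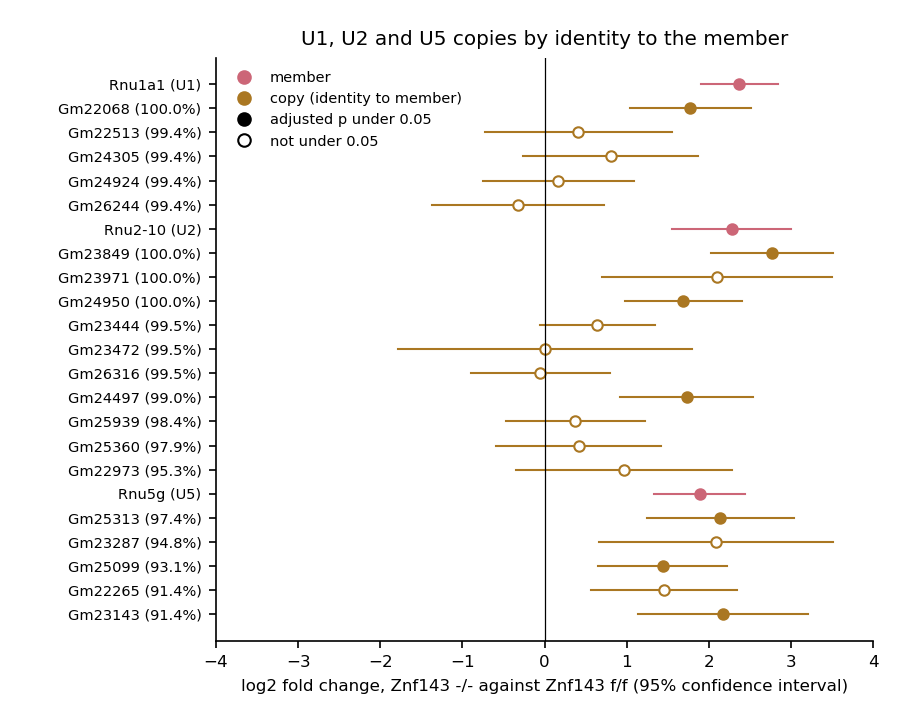
LFC (limma, 95% CI) of *Rnu1a1*, *Rnu2-10* and *Rnu5g* (red) and of the tested copies of each under other symbols (brown), ordered by their percent identity to the member; filled points have an adjusted p under 0.05. Exact copies of U1 and U2 lie at 1.69 to 2.77, U1 copies with mismatches at -0.32 to 0.80, U2 copies with mismatches at -0.05 to 1.73, and the U5 copies at 1.44 to 2.17.

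Summed over all 68 members there were 111, 138 and 112 FPM in *Znf143 f/f* and 207, 138 and 147 in *Znf143 -/-* libraries, means of 120 ± 15.3 and 164 ± 37.9 (SD, n = 3; two-sided exact permutation test, p = 0.2). The 10 Rnu genes made up 34.8, 28.2 and 33.9 of these in *Znf143 f/f* and 96.6, 67.0 and 73.1 in *Znf143 -/-* libraries, 2.44-fold more, with no overlap. The Snord sum overlapped between genotypes, at 33.2 to 40.6 and 30.4 to 55.8, and so did the sum of 7SK, 7SL and RNase P RNA, at 32.3 to 56.5 and 29.7 to 43.4. The Snora sum was 6.88 to 8.12 in *Znf143 f/f* and 5.25 to 6.82 in *Znf143 -/-* libraries, and the Scarna sum 3.48 to 4.48 and 4.63 to 5.21, both apart between genotypes. For each of the 3 sums that were apart, the two-sided exact permutation test gave p = 0.1, the smallest possible. Transcripts of mitochondrial genes fell in their sum from 29455 ± 1729 to 18039 ± 1855 FPM, and *Malat1* with *Neat1*, long RNAs kept in the nucleus, from 7581 ± 984 to 5567 ± 435 (SD, n = 3 each), without overlap. The part of this shift in library composition in the members' values was not tested.

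**Figure D5:**
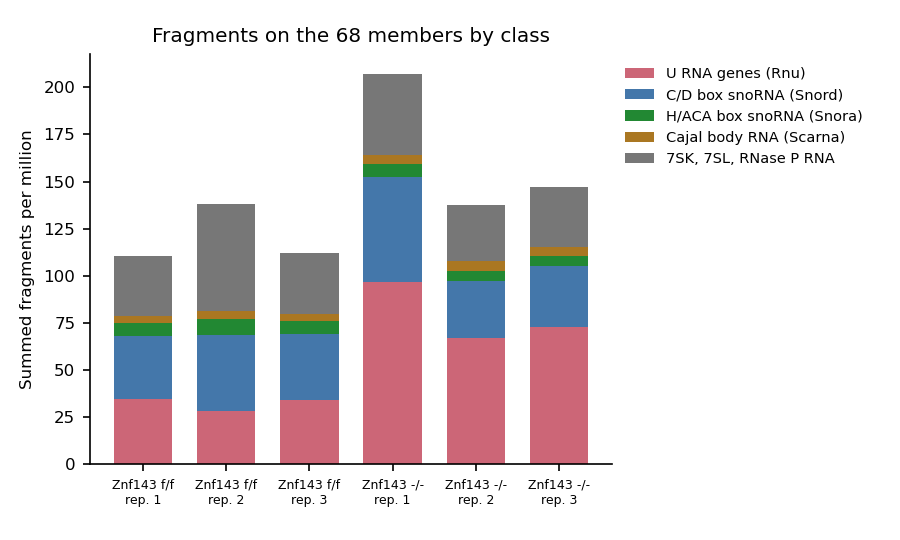
Summed FPM of the 68 members in each library, stacked by class. The Rnu part is 28.2 to 34.8 in the 3 *Znf143 f/f* libraries and 67.0 to 96.6 in the 3 *Znf143 -/-* libraries, and the first *Znf143 -/-* library has the tallest bar, 207.

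Protein genes that work with these RNAs were taken from lists. Summed over the lists, 6 of 127 tested genes (4.72%) were called, beside 6.35% of all tested genes. The 6 include *Zfp143*, the gene deleted by design, whose call was fixed in advance. In the list of snRNA promoter and RNA polymerase III factors, 1 of 20 tested genes fell, *Zfp143* itself, and 0 rose. In the Integrator and snRNA 3′ end list, 1 of 15 fell, *Ints9*, a subunit of the cleavage module of Integrator, from 6.56 ± 0.619 to 3.79 ± 0.912 FPKM (SD, n = 3; LFC -0.82, adjusted p = 0.0494). In the list of U11/U12 minor spliceosome proteins, 1 of 13 fell, *Zmat5*, from 42.7 ± 4.52 to 19.8 ± 4.20 FPKM (LFC -1.12, adjusted p = 0.0110). Of 20 snoRNP and scaRNP proteins, 1 fell, *Wrap53*, which brings scaRNAs to Cajal bodies, from 12.4 ± 1.18 to 8.45 ± 0.389 FPKM (LFC -0.55, adjusted p = 0.0409). Of 11 proteins of RNase P and RNase MRP, 1 fell, *Rpp30*, from 66.3 ± 3.49 to 46.8 ± 2.81 FPKM (LFC -0.50, adjusted p = 0.0310). Of 17 non-coding host genes of snoRNAs, 1 fell, *Snhg14*, which was at most 0.146 FPKM in any library. None of 17 Sm and Lsm ring proteins, 7 proteins of the 7SK particle and 7 of the signal recognition particle was called, and none in any of these lists rose. The medians of LFCs over the lists lay between -0.42 for the non-coding host genes and 0.10 for the signal recognition particle, beside 0.04 over all tested genes.

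Promoters of the members were not examined. The RefSeq windows from 250 bases before to 50 bases after a gene's start covered 10 of the 12 host genes. On either strand, the letters ACTACAA, from the ZNF143 site, were in 0 of these 10 and in 3.24% of all 32851 windows, CCCANNATG, from the same site, in 2 (*2410006H16Rik* and *Tpt1*) and in 5.01%, and the octamer ATGCAAAT in 1 (*Wdr43*) and in 1.74%. The windows of the members' own genes were not used here.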

How the data were processed

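RNA-seq of HSLAM cells was analysed from the table that the authors deposited, with 1 FPKM value per gene and library. The ChIP-seq and HiC samples were not analysed here. Per the labels and the study's methods, poly(A) RNA was made into cDNA with the SMART-Seq v4 kit and into libraries with Nextera XT, and the authors' pipeline ran TrimGalore, STAR on GRCm38 and FeatureCounts. By its values, the deposited FPKM is the count divided by gene length and by 1 divisor per library. Handling of multi-mapping fragments and of strand is not given in the sources used here. The authors' own fold changes, test statistics and p-values, also deposited, were not used.

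Fragments were recovered from FPKM times length, taking values within 0.05 of a whole number as whole. All values were whole except in 6 genes, none of them a member. For the third *Znf143 -/-* library the FPKM uses 48378188, also used for the second, whereas its genes hold 57895793 fragments (1.20 times as many), so each library was divided by its own total. Genes with a mean of at least 10 fragments (17963) were tested on log2(FPM + 0.02) with limma 3.58.1 in R 4.3.3 (lmFit, eBayes with trend, two-sided, no block, Benjamini-Hochberg adjustment). Fold changes are on this scale, which understates those of low genes. The code was tested on simulated fragments. Genes were located in GENCODE M21, where all 68 members matched, and hosts are genes on the same strand that span the member. Sequences, exact copies (both strands) and percent identity (edit distance over the longer length) come from GRCm38.p6. No member matched the RefSeq promoter windows. Python 3.11.15 with pandas 2.3.3 was used.

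The members, lists and tests were chosen with earlier results of these data known. The members named are *Rpph1*, *Rn7sk*, *Rn7s1*, *Rn7s2*, every tested Rnu and Scarna gene, every called member, the 5 with most fragments and those on the study's list of ZNF143 promoters. Others are said to be chosen after their values were seen. The study describes littermates, and nothing in the labels says which libraries share a litter. A marker gene and a member's sequence are not reported here.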

Additional observations from a re-analysis of the deposited data

How the results depend on the processing

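The calls of *Rnu1a1*, *Rnu2-10* and *Rnu5g* held under all 17 alternatives, and those of the U3 genes did not. On log2(FPKM as deposited + 0.1), 10 members were called in place of 6, 2 of them lower, adding *Rnu3b3*, *Snora17*, *Snord83b* and *Snord98*, and without a variance trend 1 was called lower, *Snora17*. Leaving out 1 library at a time gave 3 to 7 called members, 3 to 7 of them higher and 0 to 1 lower, the lowest count without the third *Znf143 -/-* library, and 249 to 2477 called genes in place of 1141. Same-numbered libraries did not deviate together (r of -0.051, -0.032 and 0.028). The highest r of any *Znf143 f/f* with any *Znf143 -/-* library was 0.051, so these values cannot decide which libraries form pairs. With the replicate block, 319 genes and 4 members were called, without *Rnu3b2* and *Rnu3b4*, and with block and median-of-ratios size factors 449 genes and 5 members, without *Rnu3b2*. The log2 ratio of the Rnu sum was 1.75 without *Rnu3a* in place of 1.29. With a limit of 10 fragments, 28 members in place of 43 were detected in *Znf143 f/f* libraries. The correlation of members with hosts was -0.0898 over coding hosts. The log2 fold change turned for *Rn7sk* (-0.356 to 0.0843 with 1 library left out, above 0 without the second *Znf143 f/f* library), *Rn7s1* (-0.220 to 0.357, above 0 without the second library of either genotype at 0.357 and 0.128, and 0.0762 with the deposited divisor and 0.0739 on log2 FPKM), *Rn7s2* (-0.394 to 0.0697, and 0.0034 without the second *Znf143 f/f* library), *Scarna13* (-0.0868 to 0.543, below 0 without the second *Znf143 -/-* library) and *Snord13* (-0.119 to 0.643, below 0 without the first *Znf143 -/-* library). None of these was called. The cause was not tested. Of the 49 Snord and Snora genes, 31 had too few fragments for the test.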
